A study of Rattus norvegicus with 6 samples.

Results

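The annexins analysed here were 8 genes, Anxa1, Anxa2, Anxa3, Anxa4, Anxa5, Anxa6, Anxa7 and Anxa11, of 14217 genes that the array annotation gives at least 1 probe set of their own. They were taken as all probe sets whose annotated symbol was one of these 8 names. The 8 names were chosen with earlier results of these data known. Anxa8 and Anxa9, which also have probe sets, were not among them and are described separately. The brightest probe set over the 6 arrays, a choice that uses the signals of both genotypes, represented each gene. The tissue was whole kidney of 3 heterozygous Han:SPRD Cy/+ and 3 wild-type +/+ male rats, with 1 array per sample, 10 weeks old by the sample labels, whereas the methods of the study give a younger age for the array samples. Cy/+ rats carry 1 copy of a germline mutation in Anks6 in all cells and develop cystic kidneys, and +/+ rats are wild type at this locus. The platform annotation lists Anks6 for no probe set, and the mutated gene could therefore not be used to check the genotype labels. No treatment is given for any of these samples. Separate rats are not stated for the arrays of a genotype, and the p-values therefore measure only how far these samples spread, which may be technical.

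Annexins are cytosolic proteins that bind acidic phospholipids, chiefly phosphatidylserine, on the inner face of membranes when calcium rises. They link membranes to the actin cortex, take part in vesicle traffic and in the resealing of torn membranes, and several bind small calcium-binding proteins of the S100 family through their N-terminal tails. In the kidney they are found in tubular epithelium as well as in interstitial and inflammatory cells.

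All 8 annexins were higher in Cy/+ than in +/+ kidneys, and for each of the 8 every Cy/+ array lay above every +/+ array. Each passed limma's test at an adjusted p under 0.05, adjusted by Benjamini-Hochberg over the 18625 probe sets tested, where 37.4% of all 10645 tested genes were called higher and 29.3% lower. Of all tested genes, 41.5% had every Cy/+ array above every +/+ array and 33.1% had the opposite order. The median log2 fold change of the 8 annexins, Cy/+ over +/+, was 1.50, beside 0.090 over all tested genes. Log2 fold changes of at least 1 were found for 7 of the 8 annexins, and of at least 2 for Anxa1 and Anxa2. Among all tested genes, 12.6% had a log2 fold change of at least 1 with an adjusted p under 0.05. For at least 2 with the same adjusted p this share was 2.39%.

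The promoters of Anxa1 and Anxa2 are shown because these genes had the highest fold changes of the family and the profiles over the 6 arrays that lay closest to each other. Each window runs from 250 bases before to 50 bases after the annotated start of the gene (RefSeq, GRCr8), at chr1:227303683-227303982 on the minus strand for Anxa1 and at chr8:78986002-78986301 on the plus strand for Anxa2. Capitals mark matches to TATAAA and to TGANTCA, the core of a TATA box and of an AP-1 site, searched on both strands.
Anxa1: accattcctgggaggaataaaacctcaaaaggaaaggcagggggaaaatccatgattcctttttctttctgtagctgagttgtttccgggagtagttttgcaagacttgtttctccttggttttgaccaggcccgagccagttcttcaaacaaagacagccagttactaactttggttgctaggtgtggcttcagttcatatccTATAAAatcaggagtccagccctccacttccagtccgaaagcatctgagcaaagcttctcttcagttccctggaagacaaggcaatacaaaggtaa
Anxa2: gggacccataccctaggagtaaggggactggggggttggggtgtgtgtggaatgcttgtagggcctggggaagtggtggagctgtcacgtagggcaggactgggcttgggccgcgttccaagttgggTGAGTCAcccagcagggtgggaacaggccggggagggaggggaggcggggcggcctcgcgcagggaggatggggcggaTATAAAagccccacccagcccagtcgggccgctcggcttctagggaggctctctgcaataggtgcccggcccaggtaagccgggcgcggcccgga
The TATAAA match began 46 bases before the annotated start in Anxa1 and 45 bases before it in Anxa2, and the matches in capitals do not overlap each other. Among the 7 annexins with a promoter in the table, TATAAA was found in these 2 alone, and in 14.2% of all 33469 promoters of the same length. TGANTCA was found in Anxa2 alone, beginning 123 bases before its start, and in 7.33% of all promoters. GGGCGG, the GC box, was present in 6 of the 7 and missing from Anxa1, beside 33.1% of all promoters. CCAAT, the CCAAT box, was found in Anxa4 and Anxa7, beside 37.5% of all promoters. These matches describe the letters of the windows and are not evidence of binding.

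Anxa1, the glucocorticoid-induced annexin that signals to leukocytes through formyl peptide receptors, had signals of 9225, 7703 and 7272 on the Cy/+ arrays, against 1664, 1795 and 1945 on the +/+ arrays (array signal in arbitrary units, on a linear scale). The lowest Cy/+ signal of Anxa1 was 3.74 times the highest +/+ signal. Its log2 fold change was 2.16 (standard error 0.11, adjusted p = 2.35e-05 from limma), which is 4.46-fold with a 95% confidence interval of 3.72 to 5.35.

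Anxa2, which forms a complex with S100a10 at the plasma membrane and binds plasminogen activators and actin, was likewise higher on every Cy/+ array. Its signals were 8499, 7571 and 6589 on the Cy/+ arrays, against 1485, 1732 and 1746 on the +/+ arrays. The log2 fold change of Anxa2 was 2.19 (standard error 0.12, adjusted p = 2.47e-05 from limma), or 4.55-fold (95% confidence interval 3.76 to 5.51). Of all tested genes, 1.84% had a larger log2 fold change than Anxa1 and 1.75% a larger one than Anxa2. A second probe set of Anxa2 averaged 42.7 in Cy/+ and 35.7 in +/+ kidneys, below the filter of 77.8, and was not tested. The rat assembly table lists 8 pseudogenes of Anxa2 and 4 of Anxa7, and how far their transcripts contribute to these probe sets is not known here.

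Anxa5, the annexin whose labelled protein is used to detect phosphatidylserine on dying cells, had signals of 6099, 4371 and 5240 on the Cy/+ arrays, against 1663, 1816 and 2057 on the +/+ arrays. The genotypes did not overlap, and the log2 fold change was 1.50 (standard error 0.14, adjusted p = 0.000119 from limma). Anxa6, whose annexin core is duplicated and which acts at endosomes, had 1484, 1365 and 1242 on the Cy/+ arrays, against 543, 592 and 614 on the +/+ arrays. The 3 Cy/+ signals of Anxa6 lay close together, and its log2 fold change was 1.22 (standard error 0.097, adjusted p = 6.58e-05 from limma).

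Anxa3, an annexin known from neutrophil granules, had the widest spread of the 8 among Cy/+ arrays. Its signals were 1812, 1160 and 997 on the Cy/+ arrays, against 343, 333 and 362 on the +/+ arrays. The log2 fold change was 1.89 (standard error 0.21, adjusted p = 0.000233 from limma) with all arrays and 1.64 without Cy/+ replicate 1, the array with the highest signal.

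Anxa7, also called synexin, and Anxa11 have long N-terminal regions and bind the calcium sensor Pdcd6 (ALG-2) or the related protein sorcin. Anxa7 had signals of 2209, 1880 and 1607 on the Cy/+ arrays, against 632, 645 and 708 on the +/+ arrays. Its log2 fold change was 1.51 (standard error 0.13, adjusted p = 7.86e-05 from limma). A dim second probe set of Anxa7 was not tested and averaged 72.3 in Cy/+ and 43.6 in +/+ kidneys. Anxa11 had the smallest change of the 8, with signals of 2511, 3374 and 3278 on the Cy/+ arrays, against 2235, 2221 and 2219 on the +/+ arrays. Its +/+ signals were almost equal and its lowest Cy/+ signal was 1.12 times the highest of them. The log2 fold change of Anxa11 was 0.44 (standard error 0.12, adjusted p = 0.0137 from limma), 30.9% of tested genes had a larger one, and by the methods' t-test with the same adjustment it did not pass (adjusted p = 0.0501).

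Anxa4, an annexin of secretory and absorptive epithelia, had signals of 3613, 4881 and 3982 on the Cy/+ arrays, against 1738, 1825 and 1730 on the +/+ arrays. The log2 fold change of this probe set was 1.23 (standard error 0.12, adjusted p = 0.00013 from limma).

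**Figure D1:**
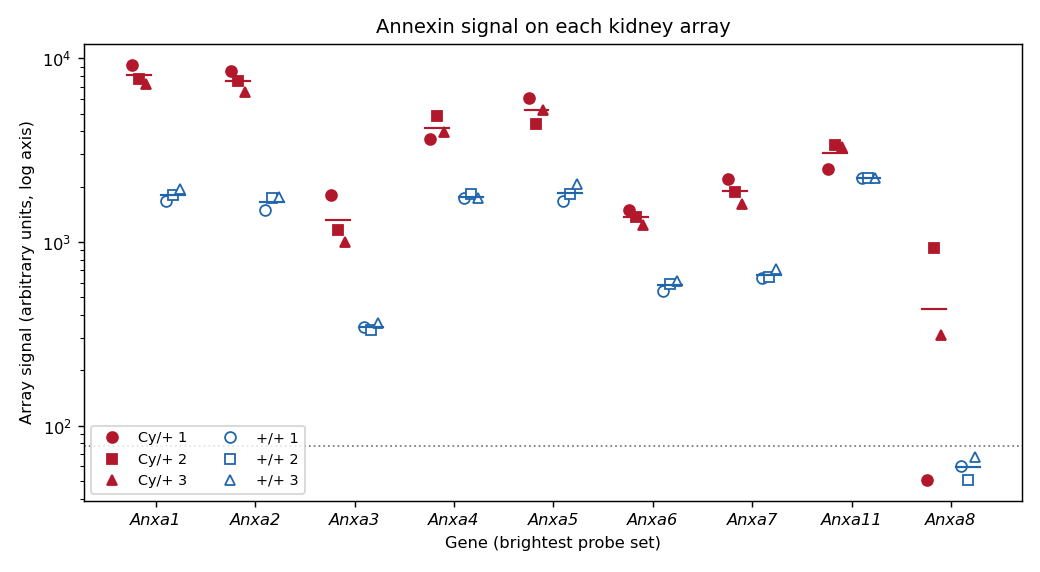
Array signals (arbitrary units, log axis) for the brightest probe set of the 8 annexins and of Anxa8, with filled symbols for Cy/+ and open symbols for +/+ arrays, lines at the mean of each genotype and a dotted line at the filter of 77.8. For the 8 annexins every filled symbol lies above every open one, whereas Anxa8 is bright on 2 of the 3 Cy/+ arrays.

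Of the 11 annexin probe sets tested, 10 were higher and 0 lower in Cy/+ kidneys, beside 35.8% and 31.3% of all tested probe sets. Genes with several tested probe sets showed how far the size of a change depended on the probe set. The second probe set of Anxa4 had signals of 810, 1108 and 903 on the Cy/+ arrays, against 788, 789 and 677 on the +/+ arrays. These values were higher on every Cy/+ array but only narrowly, and the log2 fold change of 0.31 did not pass (adjusted p = 0.0709 from limma). The ratio of the brighter to the dimmer Anxa4 probe set was 4.41 to 4.46 on the Cy/+ arrays and 2.21 to 2.55 on the +/+ arrays, and these ranges did not overlap. With 3 arrays per genotype an exact two-sided permutation test of this ratio cannot give a p under 0.1. That test therefore could not pass, and the difference between the probe sets was not tested in another way. The other 2 tested probe sets of Anxa3 were higher in Cy/+ kidneys by 1.01 and 1.16 in log2 units (limma, adjusted p = 0.00185 and 0.00154), less than the 1.89 of the brightest one. A further probe set of Anxa3, under the filter, averaged 115 in Cy/+ and 44.2 in +/+ kidneys.

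The arrays carry control probe sets that also differed between the genotypes. The 3'/5' ratio of Actb, which reflects how intact the RNA was and how far labeling reached, was 3.05 to 3.53 on the Cy/+ arrays and 1.50 to 1.52 on the +/+ arrays. For the 24 poly-A controls added to the RNA, all Cy/+ signals lay above all +/+ signals, with a median log2 difference of 1.93, and for the 18 hybridization controls likewise, with a median of 0.87. The log2 fold changes of 7 annexins exceeded the median of the hybridization controls, and those of Anxa1 and Anxa2 exceeded that of the poly-A controls. Where each annexin probe set lies along its transcript is not given in the sources used here, and the part of these control differences in the annexin values was not tested.

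**Figure D2:**
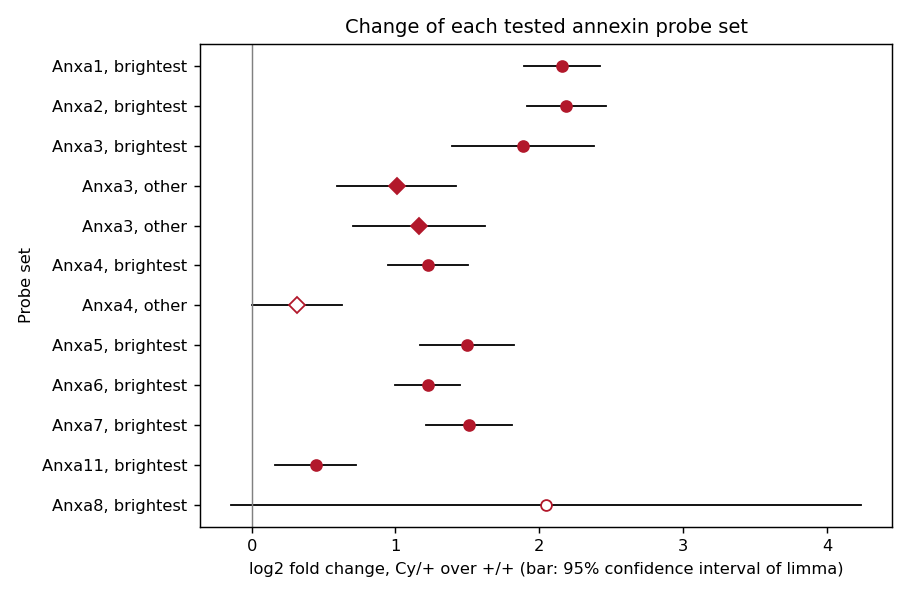
Log2 fold change, Cy/+ over +/+, of every tested annexin probe set, with bars for limma's 95% confidence interval, circles for the brightest probe set of a gene, diamonds for its other probe sets and filled symbols where the adjusted p is under 0.05. The second Anxa4 probe set, at 0.31, and Anxa8, at 2.05 with a wide interval and a +/+ mean under the filter, are open, and all others are filled and lie right of 0.

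The other annexins with a probe set, Anxa8 and Anxa9, were dim in +/+ kidneys. Anxa8, an annexin of squamous and other epithelia, had signals of 50.5, 932 and 309 on the Cy/+ arrays, against 60.5, 50.8 and 67.1 on the +/+ arrays. Cy/+ replicate 1 was thus just under the lowest +/+ array while the other two were far above all of them. The +/+ mean of Anxa8 lay under the filter, which it passed only through the Cy/+ arrays, so its values are a description. Its log2 difference was 2.05 (standard error 0.93) and its size depended on the setting. It was 2.51 with array quality weights, 3.18 without Cy/+ replicate 1 and 1.08 without Cy/+ replicate 2. Because Anxa8 entered the test only through its Cy/+ signals, a pass or a fail cannot decide whether it differed, and no p-value is given. The brighter probe set of Anxa9 averaged 27.0 in Cy/+ and 34.8 in +/+ kidneys and the dimmer one 27.1 in Cy/+ and 27.9 in +/+ kidneys, all below the filter. Anxa10 and Anxa13 had no probe set named for them alone.

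The Cy/+ arrays were more spread than the +/+ arrays for each of the 8 annexins. The range over 3 arrays had a median of 0.43 log2 units in Cy/+ and 0.17 in +/+ kidneys, beside 0.31 and 0.16 over all tested genes, of which 78.2% had a wider range in Cy/+ kidneys. Cy/+ replicate 1 was the highest Cy/+ array for 6 annexins, Anxa1, Anxa2, Anxa3, Anxa5, Anxa6 and Anxa7, and the lowest for the other two, Anxa4 and Anxa11, which were highest on Cy/+ replicate 2. Of the 3983 genes called higher, 39.5% were highest on Cy/+ replicate 1, 46.9% on Cy/+ replicate 2 and 13.6% on Cy/+ replicate 3. The largest distance between Cy/+ arrays was that of Anxa3, 1.82-fold between the highest and the lowest, and the smallest that of Anxa6, 1.19-fold. Without Cy/+ replicate 1 all 8 annexins remained higher, with log2 fold changes from 0.58 for Anxa11 to 2.10 for Anxa2.

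**Figure D3:**
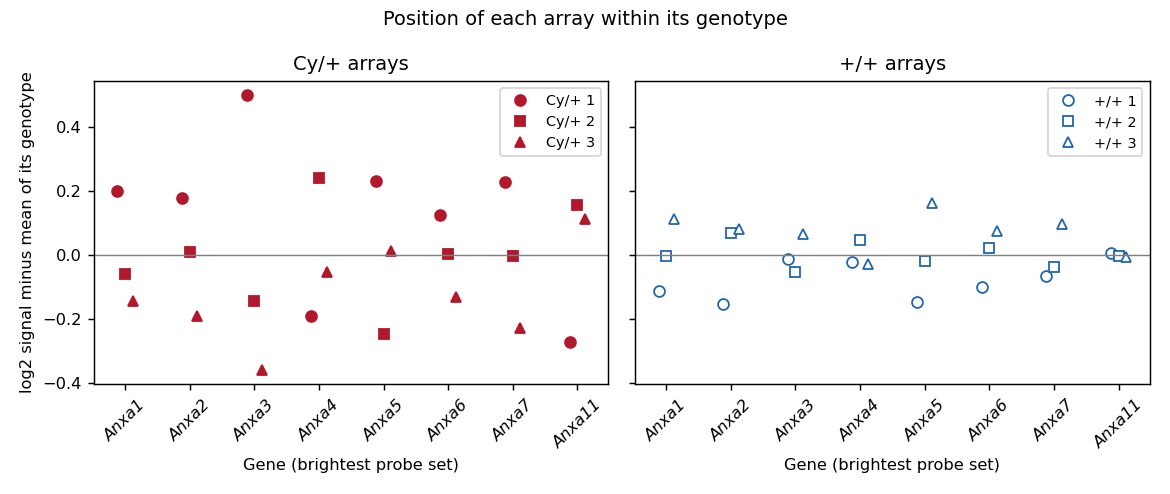
Log2 signal of each array minus the mean of its genotype, for the brightest probe set of each of the 8 annexins, with Cy/+ arrays on the left and +/+ arrays on the right. Cy/+ replicate 1 (filled circle) is the highest for 6 genes and the lowest for Anxa4 and Anxa11, and the +/+ arrays lie closer to 0.

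Several marker lists of kidney cell types also differed between the genotypes on these arrays. The counts of markers stand beside 37.4% higher and 29.3% lower among all tested genes. The summed signal of 10 proximal tubule markers was 8930 to 20865 on the Cy/+ and 79779 to 84621 on the +/+ arrays, with all 10 lower in Cy/+ kidneys, among them Slc34a3, a phosphate transporter gene, with a log2 fold change of -4.25. Of 9 tubular injury genes all were higher, and their sum was 54665 to 63720 on the Cy/+ arrays and 7458 to 9339 on the +/+ arrays, with Lcn2, the gene of lipocalin 2, at 5.11 and Clu, the clusterin gene, at 3.24. Of 10 macrophage markers 9 were higher, summing to 5528 to 10555 on the Cy/+ and 2838 to 3204 on the +/+ arrays, with Cd14 at 2.15. Of 8 fibroblast markers 6 were higher, summing to 18606 to 36361 on the Cy/+ and 7323 to 8521 on the +/+ arrays, with Col1a1 at 3.98, and at 2.23 by its second probe set. Of 10 collecting duct markers 1 was higher and 9 did not pass. Of 7 thick ascending limb and distal tubule markers 1 was higher and 3 lower, and of 5 podocyte markers 1 was higher and 4 lower. Of 8 endothelium markers 4 were lower and 4 did not pass, and of 5 lymphocyte markers 4 were higher. Of the markers counted, Slc5a12, Mrc1, Cd3d, Cd3e and Cd3g passed the filter only through the genotype in which they were brighter. Their places in the counts are therefore a description. Among the lymphocyte markers called higher, Cd2 alone did not depend on this. In whole kidney, more or fewer cells of a type cannot be told apart from more or less RNA per cell.

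Within the Cy/+ kidneys the marker sums followed different orders. The macrophage sum was 10555, 7010 and 5528 on Cy/+ replicates 1, 2 and 3, and the fibroblast sum was 36361, 18606 and 20285. The sum of 10 collecting duct markers was 9216, 25228 and 18290 on the same replicates, beside 11721 to 13109 on the +/+ arrays. The sum of 7 thick ascending limb and distal tubule markers was 20157, 20735 and 32087. Cy/+ replicate 1 was lowest for both of these sums, as it was for Anxa4, Anxa11 and Anxa8, but the second sum was nearly as low on replicate 2. The proximal tubule, podocyte, endothelium and tubular injury sums were highest on Cy/+ replicate 1, as were the macrophage and fibroblast sums. The lymphocyte sum was highest on Cy/+ replicate 2. The part of these cell types in the annexin values was not tested. Of the neutrophil markers only S100a9 could be tested, at 65.4, 116 and 192 on Cy/+ replicates 1, 2 and 3 and 54.0 to 57.9 on the +/+ arrays. S100a9 passed the filter only through the Cy/+ arrays, so its values are a description.

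Genes of annexin biology outside the family were examined as 6 lists of 47 genes in all, of which 33 could be tested. Of these 33, 21 were higher in Cy/+ kidneys, 5 were lower there and the remaining 7 did not pass, beside 37.4% higher and 29.3% lower among all tested genes. The median log2 fold change of the 33 was 0.73, beside 0.090 over all tested genes. Pla2g2a and Stab1, counted among the 21, passed the filter only through the Cy/+ arrays, so their places in the count are a description. The shares of all tested genes, 37.4% and 29.3%, also stand as the background of each single list that follows.

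Small calcium-binding proteins of the S100 and EF-hand families bind the N-terminal tails of annexins. Of 6 of their genes tested, 5 were higher, 0 lower and Pdcd6 did not pass, with a median log2 fold change of 1.95. S100a10, the partner of Anxa2, had signals of 9238, 6874 and 7590 on the Cy/+ arrays, against 1910, 2211 and 2085 on the +/+ arrays. It was higher by 1.92 on the log2 scale (standard error 0.12, adjusted p = 3.55e-05 from limma). S100a11, the partner of Anxa1, had 13240, 12580 and 13050 on the Cy/+ arrays, against 2526, 3091 and 3272 on the +/+ arrays, and was higher by 2.14 on the log2 scale (standard error 0.11, adjusted p = 2.15e-05 from limma). Both partners thus had changes near those of Anxa2 and Anxa1, and the differences between them were not tested. S100a6, which binds Anxa2 and Anxa11 among others, was higher by 3.08 in log2 units (limma, adjusted p = 4.10e-05), and S100a4 by 1.98. Sri, the gene of sorcin, which binds Anxa7, was higher by 0.54 (adjusted p = 0.000704 from limma), but its second probe set gave -0.21, which did not pass. Pdcd6 averaged 2046 ± 19.6 in Cy/+ and 2043 ± 39.9 in +/+ kidneys (SD, n = 3 each), a fold of 1.00 with a 95% confidence interval of 0.898 to 1.12.

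Annexins also take part in membrane repair, with the ferlins, which sense calcium at a wound, and calpains, which cut repair proteins. Of 8 repair genes tested, 6 were higher and 0 lower, and the median log2 fold change was 0.96. Capn2, a calpain gene, had 3651, 3884 and 3709 on the Cy/+ arrays, against 1252, 1236 and 1332 on the +/+ arrays, higher by 1.56 in log2 units (limma, adjusted p = 2.05e-05). Log2 fold changes were 1.59 for the ferlin gene Myof (adjusted p = 3.65e-05 from limma) and 1.07 for the ferlin gene Dysf (adjusted p = 0.000825 from limma). Pdcd6ip, which encodes the ESCRT-associated protein ALIX, had one of 1.10, but of 0.26 by its second probe set and of 0.33 by the mean of its probe sets. Capn1 had one of 0.85 and Capns1, the small calpain subunit gene, one of 0.33. By the methods' t-test neither passed after adjustment (adjusted p = 0.0554 for Capn1 and 0.0534 for Capns1), which left 4 repair genes higher. Capns1 also did not pass without +/+ replicate 2 (0.32, adjusted p = 0.0733 from limma) or +/+ replicate 3 (0.32, adjusted p = 0.0693). Cav1 (0.073) and Vps4b (-0.062) did not pass, although the second probe set of Cav1 was lower, at -0.63 (adjusted p = 0.000715 from limma).

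Anxa1 was described early as an inhibitor of phospholipase A2, the enzyme that frees arachidonic acid for prostanoid synthesis. Of the 5 listed genes 4 could be tested, and of these 3 were higher and 1 lower, beside 37.4% and 29.3% of all tested genes. Pla2g2a, a secreted phospholipase A2, had 2641, 1641 and 1964 on the Cy/+ arrays, against 77.9, 81.1 and 65.5 on the +/+ arrays. Its +/+ mean lay under the filter, which Pla2g2a passed only through the Cy/+ arrays, so its place in the count is a description. Pla2g4a, the cytosolic phospholipase A2 that frees arachidonic acid, had a log2 fold change of 1.51, and Ptgs1, a cyclooxygenase gene, one of 2.81 (adjusted p = 0.000199 and 0.000162 from limma). By its second probe set Ptgs1 had one of 1.51. Pla2g6, the calcium-independent enzyme, was the lower one, at -1.48 (adjusted p = 6.95e-05 from limma). The other cyclooxygenase gene, Ptgs2, had 24.7, 33.2 and 39.5 on the Cy/+ arrays, against 125, 121 and 144 on the +/+ arrays. Its Cy/+ signals all lay below its +/+ signals, but its mean over the 6 arrays was under the filter, and without a filter it was a second gene called lower.

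Of 11 tested genes that move or recognise phosphatidylserine, the lipid that annexins bind, 7 were higher and 2 lower. The shares of all tested genes were 37.4% and 29.3%, and the median log2 fold change of the 11 was 0.41. Havcr1, the injury marker KIM-1 and a phosphatidylserine receptor, had 5431, 1578 and 2420 on the Cy/+ arrays, against 60.7, 121 and 69.6 on the +/+ arrays, higher by 5.10 on the log2 scale (standard error 0.46, adjusted p = 0.000105 from limma). Log2 fold changes were 1.11 for Gas6, a bridging ligand, and 1.99 for its receptor Axl. The related receptor Mertk was lower, at -0.66 (adjusted p = 0.00302 from limma) and, by its second probe set, at -1.45, as was the scramblase gene Xkr8, at -0.30 (adjusted p = 0.0203 from limma). Xkr8 did not pass without Cy/+ replicate 2 (-0.25, adjusted p = 0.0531), +/+ replicate 1 (-0.30, adjusted p = 0.0683) or +/+ replicate 2 (-0.29, adjusted p = 0.0738), nor with the replicate number as a block (adjusted p = 0.0581). Stab1, a scavenger receptor gene of macrophages and endothelium, had 502, 454 and 343 on the Cy/+ arrays, against 43.6, 40.2 and 51.8, under the filter, on the +/+ arrays, and it too passed the filter only through the Cy/+ arrays. Pros1 (-0.0088) and Tyro3 (0.097) did not pass.

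Plasminogen activation, which the Anxa2 complex promotes at the cell surface, showed 0 genes called higher by limma among 3 tested. At an unadjusted p under 0.05 there was 1, Plat, the gene of tissue plasminogen activator, with 2250, 1019 and 1038 on the Cy/+ arrays, against 789, 837 and 785 on the +/+ arrays (log2 fold change 0.73, adjusted p = 0.0581 from limma). Its Cy/+ arrays all lay above the +/+ arrays, but Cy/+ replicate 1 was far above the others. Plat passed without Cy/+ replicate 1 (log2 fold change 0.36, adjusted p = 0.00404 from limma), replicate 2 (0.93, adjusted p = 0.0323) or replicate 3 (0.91, adjusted p = 0.0426). Under 13 of 18 alternatives Plat did not pass, among them the methods' t-test, median centring and each +/+ array left out. Plau, the urokinase gene, had 0.18 (adjusted p = 0.198 from limma) and -0.69 by its second probe set. Serpinf2, the plasmin inhibitor gene, was lower, at -2.39 (adjusted p = 0.000769 from limma). Plaur, the urokinase receptor gene, was under the filter and not tested in the main setting. It had 121.8, 102 and 73.05 on the Cy/+ arrays, against 47.1, 51.4 and 46.2 on the +/+ arrays. Without a filter it was called higher. Plg, the plasminogen gene, was also under the filter and averaged 36.6 in Cy/+ and 36.5 in +/+ kidneys. Of the listed receptors only Kdr, a VEGF receptor gene of endothelium, could be tested and it was lower, at -1.04, while the formyl peptide receptors had no probe set named for them alone.

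**Figure D4:**
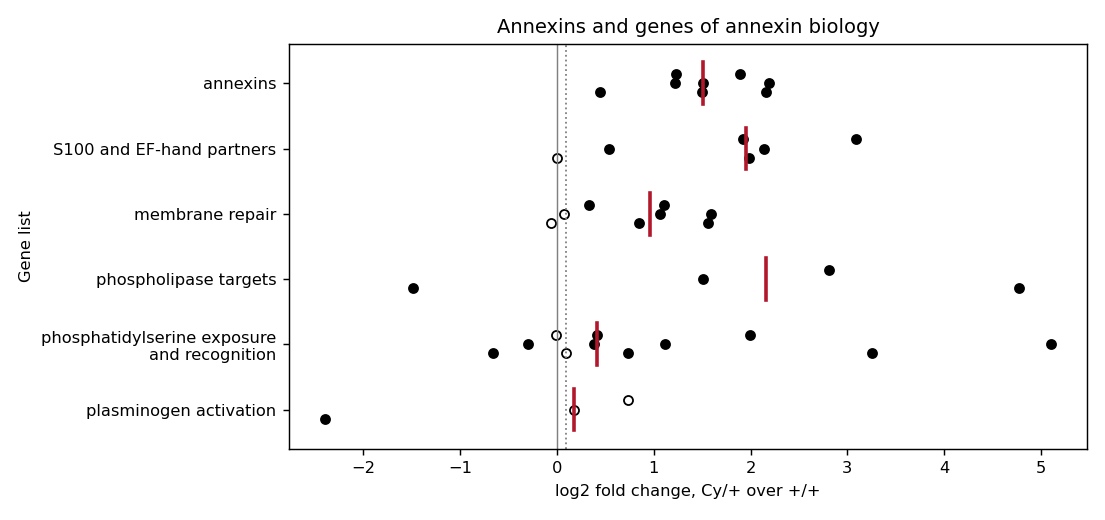
Log2 fold change, Cy/+ over +/+, of each tested gene in the annexin family and in 5 lists of related genes, with filled points where limma's adjusted p is under 0.05, red bars at the list medians and a dotted line at the median of all tested genes, 0.090. The annexins lie from 0.44 to 2.19, and the lowest and highest related genes are Serpinf2 at -2.39 and Havcr1 at 5.10.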

How the data were processed

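Kidney RNA was labeled with biotin by the authors and hybridized to rat genome oligonucleotide arrays, 1 per sample, which they read with GCOS software. The labels name MAS5. Each probe set has 1 deposited intensity per array, linear and between 10.65 and 32240, with no detection calls. The scaling between arrays is not settled. The number of arrays limits the precision.

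The log2 of the signals was used as it stood. Control probe sets (57 of 31099) were left out, and 18625 with a mean at or above the 40th percentile (log2 signal 6.28, linear 77.8) were tested with limma 3.58.1 in R 4.3.3 (eBayes with an intensity trend, no covariate). Symbols come from the platform annotation, updated by Entrez ID through the GRCr8 table for 20764 probe sets, and 436 probe sets with several symbols named no gene. The annexins had 14 probe sets, 11 of them tested.

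The annexins and all lists were chosen with earlier results of these data known. Named beside the annexins are their direct partners, Havcr1, up to 3 genes of smallest adjusted p each way per list, and the nearest profiles. Further genes of a list were picked for naming with their values in view. Alternatives covered the scaling, a floor, a pseudocount, the filter, the variance model, array weights, the methods' t-test, the replicate block, the choice of probe set and each array left out in turn.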

Additional observations from a re-analysis of the deposited data

How the results depend on the processing

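All 8 annexins were higher under each alternative with the brightest probe set of every gene, except that Anxa11 did not pass by the methods' t-test (0.44, adjusted p = 0.0501) and that Anxa6 has no probe set once those that can bind several transcripts are left out. With the second brightest probe set, which could be tested for Anxa3 and Anxa4 only, Anxa4 did not pass (0.31, adjusted p = 0.0709). With probe sets of a gene averaged, the log2 fold change was 1.22 for Anxa2, 1.36 for Anxa3, 0.77 for Anxa4 and 1.12 for Anxa7, since dim probe sets enter the mean. Leaving out 1 array at a time gave 1.64 to 2.07 for Anxa3, 0.37 to 0.58 for Anxa11 and 8 annexins higher in every case. Median centring lowered the log2 fold changes of all genes by a median of 0.069 and quantile normalization by 0.044. The median of the annexins was 1.43 with median centring and 1.59 with quantile normalization, which raised Anxa11 to 0.59 and lowered Anxa3 to 1.85.

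With the replicate number as a block, 6293 probe sets were higher and 5340 lower, and all 8 annexins were higher. Deviations of same-numbered arrays correlated at 0.15, -0.11 and -0.15, so the numbers were not taken as pairs.

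Genes of plasminogen activation called higher numbered 1 with quantile normalization, without a filter and with the replicate block, and 2 with array weights. They numbered 0 to 1 when 1 array was left out. The gene was Plat whenever a Cy/+ array was left out, whereas without a filter it was Plaur. Phospholipase genes called lower numbered 2 without a filter (Ptgs2 is added) and 1 to 2 when 1 array was left out, with 2 without Cy/+ replicate 1. Phosphatidylserine genes called lower numbered 1 with the filter at the 60th percentile, the replicate block and the mean of probe sets, and 1 to 2 when 1 array was left out. Among the receptors 0 were lower without probe sets that can bind several transcripts, which removes Kdr, and with the mean of probe sets 1 repair gene was lower. The direction turned for genes near 0: Cav1 (-0.00011 with quantile normalization, -0.63 with the second probe set, -0.66 with the mean), Pdcd6 (-0.067 with median centring, -0.0025 with array weights, -0.014 to 0.012 leaving out 1 array), Pros1 (-0.19 to 0.16 leaving out 1 array) and Tyro3 (-0.024 with quantile normalization, -0.043 to 0.29 leaving out 1 array). It also turned with the second probe set for Plau (-0.69, and -0.26 with the mean), Sri (-0.21) and Rftn1 (-0.32). Except where stated, the cause was not tested.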

Other observations

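The genes whose profiles over the 6 arrays lay nearest to those of Anxa2, Anxa1 and Anxa3 were looked up among all tested genes outside the family, by the Euclidean distance between log2 signals, each gene minus its own mean. Nearest to Anxa2 were Otulinl, Tpm1 and Lrrc8c (distances 0.20, 0.23 and 0.24), and nearest to Anxa1 were Tpm1, Map3k1 and Tes (0.15, 0.18 and 0.20). Tpm1 encodes a tropomyosin of actin filaments, Tes a protein of focal adhesions and Lrrc8c a subunit of volume-regulated anion channels. Anxa1 and Anxa2 lay closer to each other (0.13) than to any of these genes. Tpm1 averaged 6519 ± 685 in Cy/+ and 1502 ± 63.6 in +/+ kidneys (SD, n = 3 each), a log2 fold change of 2.11. The second probe set of Tpm1 gave 1.41. Lrrc8c, at 2.13 by its brightest probe set, had 0.52 by its second one.

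Nearest to Anxa3 were Rftn1, Lbh and Clec10a (0.081, 0.10 and 0.18), which were likewise highest on Cy/+ replicate 1. The nearest annexin to Anxa3 was Anxa1, at a larger distance of 0.52. Clec10a encodes a lectin of macrophages and dendritic cells, and averaged 461 ± 155 in Cy/+ and 117 ± 11.2 in +/+ kidneys (SD, n = 3 each). Rftn1 encodes a lipid raft protein, and by its second probe set it was lower (-0.32, adjusted p = 0.0422 from limma). With 6 arrays in 2 genotypes these distances are set mostly by the size of the genotype difference, and they are given as a description.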
